A study of Mus musculus with 8 samples.

Results

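The genes described here are 37 complement components, receptors and regulators, chosen by their names on the array out of 36153 gene names in all. They comprise 7 genes of the classical pathway, 8 of the lectin pathway, 3 of the alternative pathway including C3, 6 of the terminal pathway, 5 receptors and 8 regulators. RNA was from whole lung of C57BL/6 mice, so each value is an average over every cell in the tissue. The knockout group was 4 samples from mice with a knockout of GGPPS1 (gene symbol Ggps1, which makes the geranylgeranyl lipid attached to many small GTPases) described as restricted to the lung, and the wild-type group was 4 samples from wild-type mice. All mice of both groups had received lipopolysaccharide (LPS), a component of the bacterial outer membrane that injures the lung, and were taken at 12 h. Unexposed mice are not part of the comparison, which is therefore between genotypes, all after LPS. The promoter that drives the deletion, the deleted exons, the age of the mice and the route of LPS are not given in the sources used here.

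Complement is a cascade of plasma and cell-surface proteins that marks targets and attracts leukocytes. C1q starts the classical pathway on antibody or other ligands, the collectins and ficolins start the lectin pathway on sugars, and the alternative pathway amplifies C3 that is already activated. All of them meet at C3, and C5 to C9 then form the membrane attack complex, while the fragments C3a and C5a signal through receptors on myeloid cells. Liver makes most of the plasma proteins, and macrophages, epithelium and fibroblasts of the lung make some of them locally.

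Each sample was read on its own single-colour array, and between 58.1% and 61.6% of the spots were well above background in knockout samples, against 61.5% to 65.3% in wild-type samples. All 8 arrays lay on 1 slide, with the knockout samples in slide row 2 and the wild-type samples in row 1, so slide position and genotype cannot be told apart. The replicate number was also the slide column, 1 to 4 in each group, so same-numbered samples shared a column. Values are log2 processed signal relative to the array's 75th percentile, and differences are knockout minus wild-type on that log2 scale, ± SE from limma with 4 samples per group. A level of 1 probe is not set against the level of another. The targeted gene, Ggps1, read 1.32, 1.24, 1.22 and 1.24 in the knockout samples, against 1.26, 1.34, 1.26 and 1.40 in the wild-type samples. Its difference was -0.06 ± 0.07 (limma, adjusted p = 0.608), and 2 other probes of the gene gave -0.12 and 0.19. Since the deleted part of Ggps1 is not given here, these probes do not check the labels. Lung identity was checked with 7 alveolar type 2 cell markers, which were above background on all 8 arrays.

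Of the 37 complement genes, 31 were measured, meaning well above background on at least 3 of the 4 arrays of a group. The other 6 were Masp1 and Mbl2 of the lectin pathway, C8b and C9 of the terminal pathway, the receptor Vsig4 and the regulator C4bp. C4bp, C9 and Mbl2 were not well above background on any array. C8b was above background on 1 knockout array and no wild-type array. Vsig4, the complement receptor of tissue-resident macrophages that binds C3b, was above background on no knockout array and 1 wild-type array. Its dim signal read -7.08, -5.17, -6.93 and -6.14 in the knockout samples, against -5.51, -3.53, -7.54 and -7.39 in the wild-type samples. No fold is given for these 6 genes.

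None of the 31 measured complement genes differed between knockout and wild-type lungs at an adjusted p under 0.05 (limma, Benjamini-Hochberg over 24464 genes). Over all genes the same threshold was passed in 0.0286% of tests for lower values and 0.0327% for higher values. At an unadjusted p under 0.05, 4 of the 31 were lower in knockout lungs (C1qb, C1qc, C3ar1 and Cr2), or 12.9%, beside 13.4% of all genes. Another 3 were higher in knockout lungs (C7, Colec11 and Cd55), or 9.68%, beside 10.1% of all genes. The groups of 4 did not overlap for C1qb and Cr2, lower in knockout lungs (6.45%, beside 9.26% of all genes), and for Cd55, higher in knockout lungs (3.23%, beside 6.08%). These shares were near or below the background, and the counts say nothing particular about complement.

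The signs were also divided much as over all genes. Of the 31 genes, 18 (58.1%) had a lower mean in knockout lungs, beside 54.4% of all genes, and 13 (41.9%) had a higher one, beside 45.6%. The median difference was -0.08, beside -0.03 over all genes. The median size of the difference was 0.24 for the complement genes and 0.18 for all genes. The complement genes also varied more between samples of 1 group, with a median pooled SD of 0.28, beside 0.19 for all genes. That SD ran from 0.095 for Cd55 to 1.43 for Fcna, so the same 4 against 4 comparison was far more precise for some of these genes than for others. For 9 of the 31 (C1ra, C1s, C4b, C3, Cfb, C6, Serping1, Cd55 and Cr1l) the 95% interval of the difference lay wholly within 0.5 of zero, a change of at most 1.41-fold in either direction. For 23 of 31 it lay within 1.

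**Figure D1:**
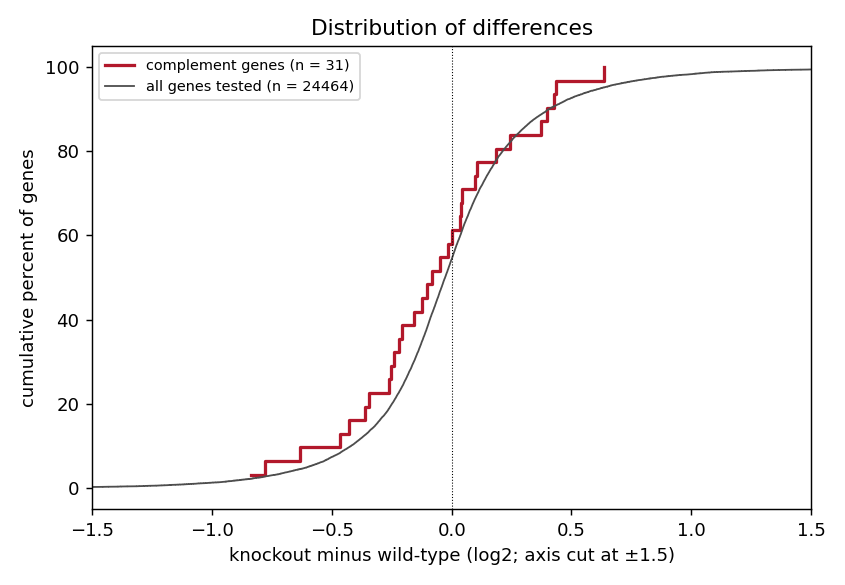
Cumulative percent of genes against the knockout minus wild-type difference (log2), for the 31 measured complement genes (red steps) and all 24464 genes tested (grey). The red steps run close to the grey curve, with medians of -0.08 and -0.03.

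The classical pathway held the lowest p of the set, in C1qb. C1q is built from the chains C1qa, C1qb and C1qc, which tissue macrophages make together, and their probes lie in 1 cluster on the minus strand of mm9 chromosome 4 (136436578 to 136436637 for C1qb, 136445766 to 136445825 for C1qc and 136452409 to 136452468 for C1qa). C1qb read 1.03, 1.35, 0.62 and 1.08 in the knockout samples, against 1.76, 1.64, 1.37 and 1.84 in the wild-type samples. Every knockout sample was below every wild-type sample, the closest being knockout replicate 2 and wild-type replicate 3, but the groups overlapped in the deposited value table and after quantile normalization. The difference was -0.63 ± 0.17 (95% interval -1.02 to -0.25), which is 1.55-fold lower in knockout lungs, with an unadjusted p of 0.0053 and an adjusted p of 0.091 in limma.

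C1qc read 1.03, 1.66, 1.20 and 1.73 in the knockout samples, against 2.03, 1.88, 1.71 and 1.87 in the wild-type samples. Only knockout replicate 4 reached into the wild-type range. The difference was -0.47 ± 0.17 (limma, adjusted p = 0.159). C1qa read 0.73, 1.50, 1.31 and 1.59 in the knockout samples, against 1.64, 1.69, 1.63 and 1.54 in the wild-type samples, with a difference of -0.35 ± 0.18 (limma, adjusted p = 0.279). Here knockout replicate 1 was low and knockout replicate 4 lay among the wild-type samples, and without replicate 1 the difference was -0.16. The mean of the 3 chains was 0.93, 1.50, 1.05 and 1.47 in the knockout samples, against 1.81, 1.74, 1.57 and 1.75 in the wild-type samples, so knockout replicates 1 and 3 were the low ones for the complex as a whole. The signs of all 3 chains were the same under all 18 alternatives.

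Macrophage markers were also lower on average, and none of them passed the adjusted threshold at the settings used for the complement genes. With normexp background correction, 1 monocyte and interstitial macrophage and 3 alveolar macrophage markers passed it in limma, all lower in knockout lungs. With no filter on dim probes 2 and 3 did so, with a variance trend 0 and 3, and with the filter on all 8 arrays 0 and 1. Those settings, in the order given, called 1.16%, 2.17%, 1.05% and 0.309% of all genes lower, beside 0.0286% at the main setting. Of 10 measured monocyte and interstitial macrophage markers, 9 were lower on average in knockout lungs, with a median difference of -0.68, and the mean level of the list was 1.50 to 2.16 in knockout samples, against 2.21 to 2.69 in wild-type samples. Of 9 measured alveolar macrophage markers 7 were lower on average (median -0.49), and the mean level was 2.003 to 2.22 in knockout samples, against 2.31 to 2.84 in wild-type samples. All measured markers of both lists were above background on all 8 arrays, while Adgre1, Ly6c2, Siglecf and Chil3 had no measured probe under those names. In whole lung, fewer cells of a type and less RNA per cell cannot be told apart, and the part these cells have in the C1q values was not tested.

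**Figure D2:**
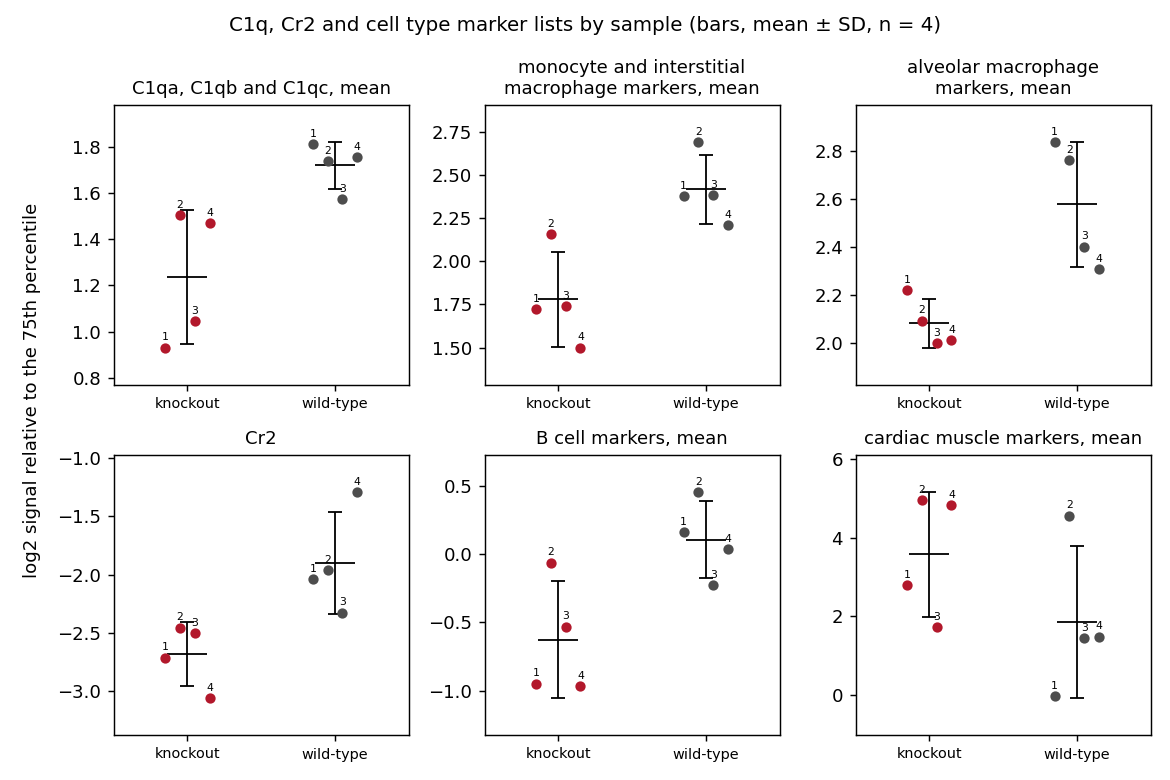
Log2 signal relative to the 75th percentile for each sample (points, numbered by replicate; bars, mean ± SD, n = 4), for the mean of the C1q chains, Cr2 and the mean of 4 marker lists, with knockout on the left of each panel. The C1q mean was 0.93 to 1.50 in knockout samples and 1.57 to 1.81 in wild-type samples, and both macrophage lists were also apart, while the B cell and cardiac muscle lists overlapped.

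The sequences upstream of 4 of the genes with an unadjusted p under 0.05 are given because they are where shared binding motifs of C1qb and C1qc, and of C7 and C3ar1, would be looked for. They are the 250 bases before the start given in a RefSeq promoter table, build GRCm38.p6, 5′ to 3′ on the gene's strand, which is minus for all 4. Capitals mark each match, on either strand, to GAGGAA, a longer form of the GGAA core bound by ETS factors such as PU.1, or to TTCNNNGAA, the STAT motif. The GGAA core by itself is not marked. The motifs do not overlap in these windows.
C1qb, chr4:136886201-136886450: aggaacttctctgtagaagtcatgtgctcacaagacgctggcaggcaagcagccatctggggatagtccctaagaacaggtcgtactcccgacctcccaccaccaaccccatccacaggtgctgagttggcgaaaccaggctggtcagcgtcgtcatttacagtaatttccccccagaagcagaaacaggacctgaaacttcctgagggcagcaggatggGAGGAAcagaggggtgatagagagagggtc
C1qc, chr4:136892915-136893164: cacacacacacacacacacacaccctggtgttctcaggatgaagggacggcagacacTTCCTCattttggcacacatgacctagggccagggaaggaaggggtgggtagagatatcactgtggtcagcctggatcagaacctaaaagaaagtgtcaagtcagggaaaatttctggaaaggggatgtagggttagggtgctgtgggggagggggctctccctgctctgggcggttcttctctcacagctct
C7, chr15:5063774-5064023: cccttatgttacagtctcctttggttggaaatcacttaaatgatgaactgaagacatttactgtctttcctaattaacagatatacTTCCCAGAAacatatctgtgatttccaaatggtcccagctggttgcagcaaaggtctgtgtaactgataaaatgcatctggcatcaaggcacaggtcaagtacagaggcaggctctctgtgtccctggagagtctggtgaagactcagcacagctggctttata
C3ar1, chr6:122856158-122856407: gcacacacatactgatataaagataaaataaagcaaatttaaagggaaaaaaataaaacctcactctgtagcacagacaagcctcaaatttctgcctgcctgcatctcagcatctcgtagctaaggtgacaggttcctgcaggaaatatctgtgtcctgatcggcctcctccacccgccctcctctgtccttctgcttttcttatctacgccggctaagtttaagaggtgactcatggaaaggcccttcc
C1qb had GAGGAA 30 bases before its start, and C1qc had it on the opposite strand, 193 bases before its start. GAGGAA occurs on 1 strand or the other in 23.3% of 32851 mouse promoters of that length. C7 had a TTCNNNGAA match 164 bases before its start, found in 7.02% of those promoters. C3ar1 had neither. A match describes these letters and not a bound site. For C1qc that start lies 22 bases inside the full extent of the gene, which also holds a longer transcript. Colec11, Cr2 and Cd55 are not printed because their starts lie 128 bases or more inside the gene, where the Colec11 stretch held 1 TTCNNNGAA match and the Cr2 and Cd55 stretches neither motif.

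The rest of the classical pathway was at nearly the same level in both groups. C4b, which carries the C4 thioester protein that joins C2 in the classical and lectin C3 convertase, read 5.20, 5.04, 5.02 and 5.69 in the knockout samples, against 5.54, 5.01, 5.08 and 5.16 in the wild-type samples. Knockout replicate 4 and wild-type replicate 1 were the high ones, the other 6 samples lay close together, and the difference was 0.04 ± 0.18 (limma, adjusted p = 0.921). The C1 proteases C1ra and C1s differed by 0.10 ± 0.14 (0.25 at the other C1ra probe) and by 0.00 ± 0.12, and C2, the protease of that convertase, by -0.08 ± 0.21. The C1s probe is named C1s1 in RefSeq. C1ra, C1s and C4b have near-identical copies in the mouse genome, and whether a probe also reads the copy was not tested.

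The lectin pathway was measured in 6 of its 8 genes. Colec11, a collectin that binds sugars and activates the pathway with MASP proteases, read -2.85, -2.70, -2.63 and -2.13 in the knockout samples, against -3.27, -2.91, -2.79 and -3.09 in the wild-type samples. Knockout replicate 4 was the highest of all samples, knockout replicate 1 lay inside the wild-type range, and the difference was 0.44 ± 0.17 (95% interval 0.04 to 0.84), 1.35-fold higher in knockout lungs, with an unadjusted p of 0.035 and an adjusted p of 0.181 in limma. The unadjusted p of Colec11 was not under 0.05 in limma after quantile normalization or median centring. Mbl1, a mannose-binding lectin, differed by 0.43 ± 0.21 (limma, adjusted p = 0.254). Colec12, a membrane collectin and scavenger receptor, differed by -0.24 ± 0.13, and the neutrophil-lineage ficolin Fcnb by -0.25 ± 0.21, with -0.57 at its other probe.

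Fcna, the ficolin of liver and spleen macrophages, and Masp2, the protease that cleaves C4 and C2, were too variable for a comparison. Fcna had an SD of 1.30 in knockout and 1.55 in wild-type samples, and its difference of -0.10 had an SE of 0.88. Masp2 was above background on 3 arrays of each group and differed by 0.37 ± 0.60. Masp2 is largely a product of liver, and Fcna of macrophages there and in spleen. Of 10 hepatocyte markers 6 were measured, 5 lower and 1 higher on average in knockout lungs (median -0.34), and 4 of them were above background on all 8 arrays. Their mean level was -2.44 to -1.98 in knockout samples, against -2.17 to -1.22 in wild-type samples. Alb, the albumin gene, was above background on 0 knockout and 3 wild-type arrays, and Fga, a fibrinogen gene, on 2 and 4. Both were measured only through the wild-type group, where they read higher. Ahsg, another liver product, was above background on all 8. With normexp background correction, 3 of the 6 hepatocyte markers were lower and 3 higher on average in knockout lungs (median -0.03).

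C3, where all pathways meet, had one of the narrower intervals of the set. It read 8.38, 8.24, 8.48 and 8.49 in the knockout samples, against 8.51, 8.17, 8.35 and 8.38 in the wild-type samples. The lowest sample of each group was replicate 2, the groups overlapped throughout, and the difference was 0.04 ± 0.10 (95% interval -0.18 to 0.27, adjusted p = 0.813, limma). That interval spans 0.882 to 1.20 times the wild-type level. Its 2 probes gave 0.04 and -0.05. Cfb, factor B, the protease of the alternative C3 convertase, read 6.63, 6.97, 6.49 and 7.02 in the knockout samples, against 6.69, 6.75, 6.62 and 6.90 in the wild-type samples. The knockout samples spread more widely on both sides of the wild-type ones, and the difference was 0.04 ± 0.14 (95% interval -0.27 to 0.36, adjusted p = 0.881, limma).

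Cfp, properdin, which stabilises that convertase and is made by neutrophils, monocytes and macrophages, read 4.74, 5.05, 4.36 and 4.75 in the knockout samples, against 4.77, 5.51, 5.11 and 4.96 in the wild-type samples. Knockout replicate 2 alone lay inside the wild-type range, and the difference was -0.36 ± 0.19 (95% interval -0.81 to 0.08, adjusted p = 0.288, limma). Without wild-type replicate 2 it was -0.22. Of 10 measured neutrophil markers 7 were lower on average in knockout lungs (median -0.30), and their mean level was 3.90 to 4.22 in knockout samples, against 4.09 to 4.77 in wild-type samples (Ly6g was not measured). The direction of the list as a whole rested on the replicates numbered 2. With both left out, a setting added after the data were seen, 4 were lower and 6 higher, with a median of 0.03. The median was -0.13 without wild-type replicate 2 and -0.14 without knockout replicate 2. With all samples the groups were apart for 2 of the 10 neutrophil markers, both lower in knockout lungs, beside 9.26% of all genes. Leaving samples out cannot make those 2 overlap. The part of these cells in the Cfp values was not tested.

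**Figure D3:**
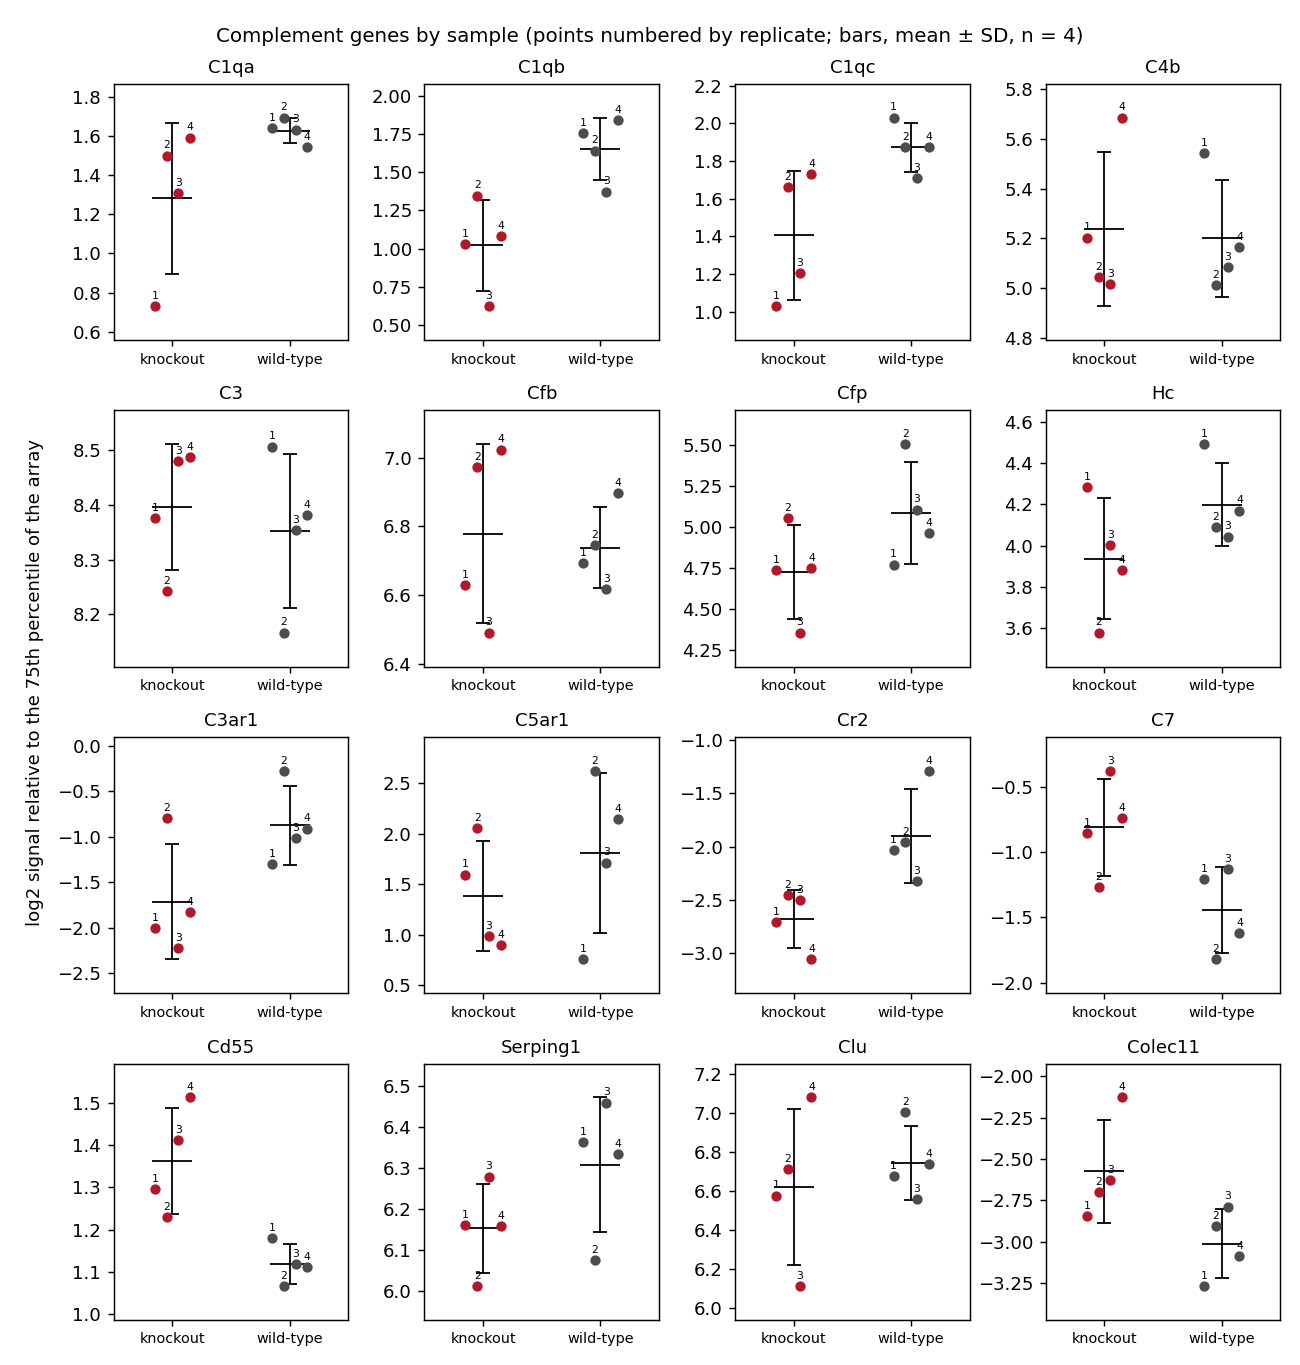
Log2 signal relative to the array's 75th percentile for 16 complement genes, with knockout on the left and wild-type on the right of each panel (points are samples numbered by replicate; bars show mean ± SD, n = 4). At this scaling the groups are apart for C1qb (not after quantile normalization), Cr2 (not at its other probe) and Cd55 and overlap for the other 13 genes. Each panel has its own axis.

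In the terminal pathway, Hc, which encodes C5, read 4.28, 3.58, 4.00 and 3.88 in the knockout samples, against 4.49, 4.09, 4.04 and 4.17 in the wild-type samples. Replicate 1 was the highest of each group, the groups overlapped, and the difference was -0.26 ± 0.16 (limma, adjusted p = 0.360). C7, which inserts the forming attack complex into a membrane, was higher on average. It read -0.85, -1.27, -0.37 and -0.74 in the knockout samples, against -1.21, -1.82, -1.13 and -1.62 in the wild-type samples. Knockout replicate 2 alone lay inside the wild-type range, as the lowest of its group, and wild-type replicate 2 was the lowest of all. The difference was 0.63 ± 0.22 (95% interval 0.12 to 1.15), 1.55-fold higher in knockout lungs, with an unadjusted p of 0.022 and an adjusted p of 0.149 in limma.

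C6, the partner of C7 in the complex and its neighbour on chromosome 15, differed by -0.02 ± 0.13 (95% interval -0.31 to 0.28), and C8g, a small subunit of C8, by -0.22 ± 0.18. C7 is made by mesenchymal cells in many tissues. Of 8 fibroblast markers, 4 were lower and 4 higher on average in knockout lungs (median 0.01), with a mean level of 2.82 to 3.36 in knockout samples, against 2.52 to 3.07 in wild-type samples. Of 6 smooth muscle markers all were higher on average in knockout lungs (median 0.80), with a mean level of 2.24 to 4.00 in knockout samples, against 1.64 to 2.84 in wild-type samples. The part of these cells in the C7 values was not tested.

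**Figure D4:**
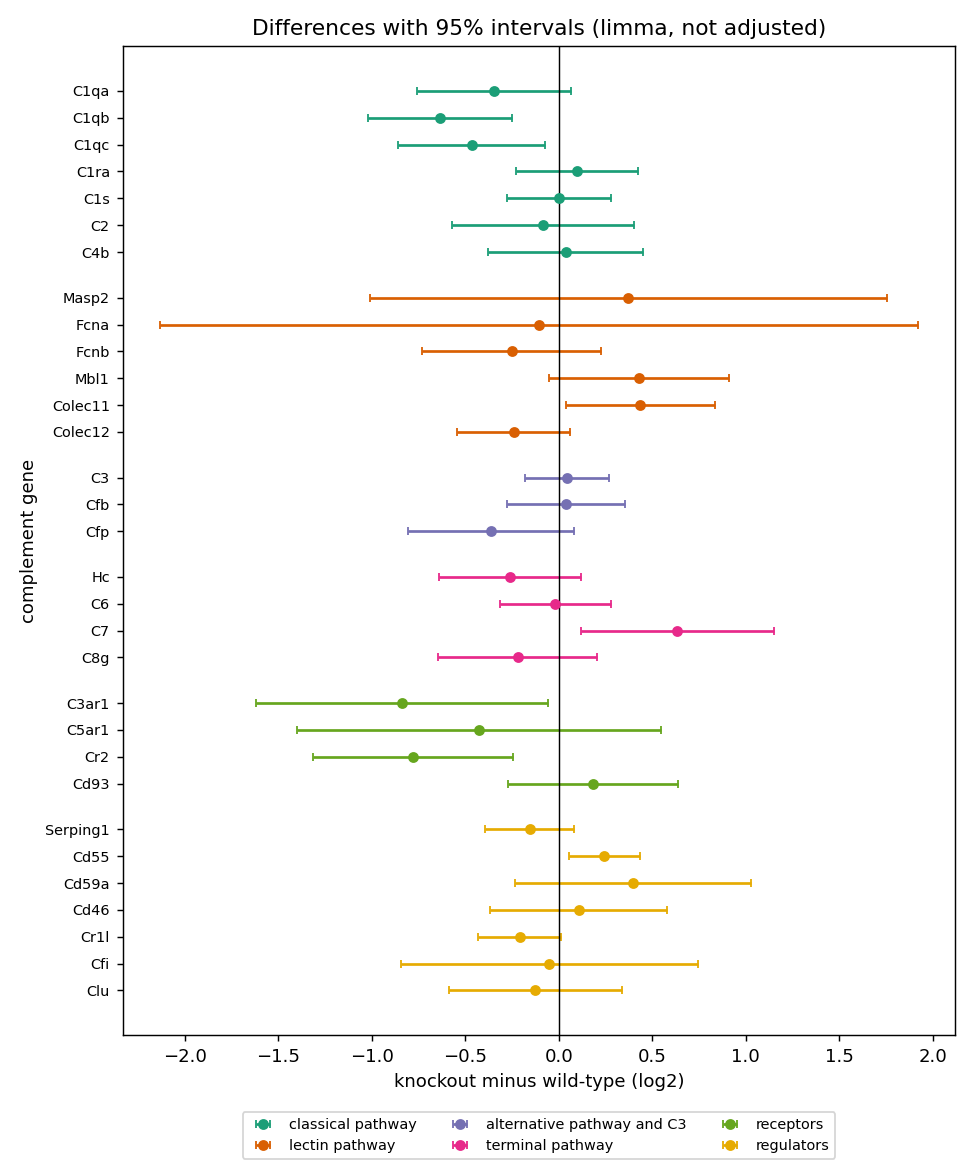
Knockout minus wild-type difference (log2, limma) with its unadjusted 95% interval for each of the 31 measured complement genes, coloured by role; points right of the line are higher in knockout lungs. The intervals of C1qb, C1qc, C3ar1 and Cr2 lie left of zero and those of C7, Colec11 and Cd55 right of it, and Fcna and Masp2 have the widest intervals.

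The receptors had the lowest median of the 6 roles, -0.60 over 4 measured genes, 3 of which were lower on average in knockout lungs. C3ar1, the receptor for C3a on macrophages and other myeloid cells, read -2.01, -0.79, -2.22 and -1.83 in the knockout samples, against -1.30, -0.28, -1.02 and -0.91 in the wild-type samples. Replicate 2 was the highest of each group, and it alone put a knockout sample inside the wild-type range. The difference was -0.84 ± 0.34 (95% interval -1.62 to -0.06), 1.79-fold lower in knockout lungs, with an unadjusted p of 0.038 and an adjusted p of 0.187 in limma. With both replicates numbered 2 left out, a setting added after the data were seen, it was -0.94 ± 0.15 with an adjusted p of 0.113 in limma. The macrophage markers given beside C1q were lower on average too, Csf1r of that list differing by -0.76, and their part in the C3ar1 values was not tested.

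C5ar1, the main C5a receptor of neutrophils and macrophages, read 1.60, 2.06, 0.98 and 0.89 in the knockout samples, against 0.76, 2.62, 1.71 and 2.15 in the wild-type samples. The lowest sample of all was wild-type replicate 1 and the highest wild-type replicate 2. The difference was -0.43 ± 0.42 (95% interval -1.40 to 0.55, adjusted p = 0.559, limma). Its size depended on those libraries, being larger, -0.78, without wild-type replicate 1 and smaller, -0.16, without wild-type replicate 2. Cd93, a transmembrane protein of endothelium and myeloid cells first described as a C1q receptor, differed by 0.18 ± 0.20.

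Cr2, which encodes the B cell and follicular dendritic cell receptors for C3 fragments, read -2.71, -2.45, -2.50 and -3.05 in the knockout samples, against -2.04, -1.96, -2.32 and -1.29 in the wild-type samples. The groups did not overlap, and knockout replicate 4 and wild-type replicate 4 were the extremes. The difference was -0.78 ± 0.23 (95% interval -1.31 to -0.25), 1.72-fold lower in knockout lungs, with an unadjusted p of 0.010 and an adjusted p of 0.109 in limma. The other Cr2 probe gave -0.50, and there the groups overlapped, with knockout replicate 4 (-4.26) just above wild-type replicate 4 (-4.29). All 5 measured B cell markers were lower on average in knockout lungs (median -1.01, with Cd79a at -1.01), and their mean level was -0.96 to -0.06 in knockout samples, against -0.23 to 0.46 in wild-type samples (Pax5 was not measured). The part of B cells in the Cr2 values was not tested.

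Among the regulators, Cd55, decay-accelerating factor, which takes C3 convertases apart on the cell surface, had the smallest spread of all 31 genes. It read 1.30, 1.23, 1.41 and 1.51 in the knockout samples, against 1.18, 1.07, 1.12 and 1.11 in the wild-type samples. Every knockout sample was above every wild-type sample, by a small margin. The difference was 0.24 ± 0.08 (95% interval 0.06 to 0.43), 1.18-fold higher in knockout lungs, with an unadjusted p of 0.018 and an adjusted p of 0.135 in limma. With median centring the unadjusted p of Cd55 was not under 0.05 in limma. The near-identical copy Cd55b is on the array as Daf2, and whether the Cd55 probe reads it was not tested.

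Serping1, the C1 inhibitor, read 6.16, 6.01, 6.28 and 6.16 in the knockout samples, against 6.36, 6.08, 6.46 and 6.33 in the wild-type samples. Replicate 3 was the highest and replicate 2 the lowest of each group, and the difference was -0.16 ± 0.10 (limma, adjusted p = 0.383). Clu, clusterin, an inhibitor of the terminal complex, read 6.58, 6.72, 6.12 and 7.08 in the knockout samples, against 6.68, 7.01, 6.56 and 6.74 in the wild-type samples, with knockout samples at both ends of the range. Its difference was -0.12 ± 0.20 (limma, adjusted p = 0.732). Cr1l, the rodent convertase inhibitor Crry, differed by -0.21 ± 0.10 (limma, adjusted p = 0.231), and Cd59a, which blocks the last step of the attack complex, by 0.40 ± 0.27. Cd46, which in the mouse is made mainly in testis, was above background on 2 knockout and 3 wild-type arrays and differed by 0.11 ± 0.20. Cfi, factor I, which cleaves C3b and C4b, was above background on 3 knockout and 4 wild-type arrays and differed by -0.05 ± 0.34.

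The replicates numbered 2, both in slide column 2, were the lowest together in several of these genes. Replicate 2 was the lowest sample of both groups for 8 of the 31 genes (25.8%, beside 12.7% of all genes), namely C1ra, C1s, C2, C3, C7, Cd93, Serping1 and Cd55. Counted by group, replicate 2 was the lowest for 11 genes in knockout and 10 in wild-type samples, and replicate 3 for 10 and 10. The replicates numbered 2 had the highest level of 8 cardiac muscle markers in their group, which was 2.79, 4.95, 1.72 and 4.83 in the knockout samples, against -0.04, 4.56, 1.44 and 1.48 in the wild-type samples. Knockout replicate 4, with nearly the same cardiac muscle level as knockout replicate 2, was the highest knockout sample for 13 of the 31 genes. With both replicates numbered 2 left out, 0 of the 31 genes passed in limma (6 at an unadjusted p under 0.05, or 19.4%, beside 18.4% of all genes), and 19 had a lower and 12 a higher mean in knockout lungs. The part of heart tissue in these values was not tested.

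Of 33 further symbols, 26 were on the array and 20 were measured, 11 lower and 9 higher on average in knockout lungs (median -0.12). None passed the adjusted threshold in limma, and at an unadjusted p under 0.05 there were 6 lower (30%, beside 13.4% of all genes) and 1 higher (5%, beside 10.1%) in knockout lungs. The lower ones included the chains of complement receptors 3 and 4 on myeloid cells: Itgax differed by -0.83 ± 0.17 (limma, adjusted p = 0.0634), their shared chain Itgb2 by -0.65 ± 0.20 and Itgam by -0.23 ± 0.07. The rest were the alternative C5a receptor C5ar2 (array name Gpr77, -0.58 ± 0.24), calreticulin, which binds C1q (Calr, -0.30 ± 0.12), and the carboxypeptidase N subunit Cpn2 (-0.59 ± 0.21). Cpn2 was above background on 1 knockout and 4 wild-type arrays, so it was measured only through the wild-type group. Its difference ran from -0.65 to -0.09 over the settings that kept all samples. The higher one was the complement inhibitor Csmd1 (0.55 ± 0.19). With the filter on all 8 arrays, 18 of the further genes were measured. At an unadjusted p under 0.05 in limma, 5 were lower and 1 higher there, beside 13.5% and 11.2% of all genes. Itgax was under the threshold with normexp background correction (limma, adjusted p = 0.0469), with no filter on dim probes (0.0470) and with an intensity trend (0.0486). Over all genes, those settings called 1.16%, 2.17% and 1.05% lower, beside 0.0286% at the main setting. With no filter, 3 of the 26 further genes on the array were called higher, beside 7.55% of all genes. Macrophage markers were lower on average too, and their part in the Itgax, Itgb2 and Itgam values was not tested.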

How the data were processed

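Scans were processed in Agilent Feature Extraction 10.7.1.1, per the submitters' processing notes, and probe coordinates are on mm9, per the file headers. The deposited scanner files hold intensity values, background-subtracted and detrended, and the deposited value table holds log2 values made by the authors, used as an alternative. Control and outlier spots were dropped, spots of a probe averaged, and the array's 75th percentile subtracted from log2 processed signal. Probes had to be well above background on at least 3 arrays of 1 group of 4, and the brightest probe of a gene name was used. The test was limma 3.58.1 (R 4.3.3; lmFit, eBayes, two-sided, no covariate), adjusted over all 24464 genes at a threshold of 0.05. The number of arrays limits the precision. Replicate numbers name samples and are also the slide columns, and the labels do not pair samples by them. The labels do not say that each sample is a separate mouse; otherwise p-values measure technical spread. The 37 genes, other lists and alternatives were chosen with earlier results of these data known. Genes were described sample by sample when the adjusted or unadjusted p was under 0.05, or when they were among 14 genes at common steps of the cascade, and further complement genes were named by the same p rules. Csf1r, Cd79a, Alb, Fga and Ahsg were named after their values were seen. RefSeq names were matched by accession for 35 genes and by symbol for 2. Exon and UTR annotation of the probes was not used here. In simulated data the test recovered 10 of 50 genes changed by 0.5 log2 units and 33 of 50 changed by 1. Alternatives were background correction, normalization, filters, probe choice, the deposited table, a replicate block, a variance trend and leaving out samples. A slide block was not run because there was 1 slide.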

Additional observations from a re-analysis of the deposited data

Results flagged for a closer look

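C1s in knockout replicate 2, at 3.61, lay apart from the other 3 knockout samples, which were at 3.86 to 3.91. Its gap to the nearest of them was 0.832 of the group's range, just over Dixon's critical value for 4 samples. This was 1 of 78 groups checked, and chance alone marks about 1 group in 20.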

How the results depend on the processing

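No complement gene passed the adjusted threshold under any of the 18 alternatives except with no filter on dim probes. There 1 was called higher in knockout lungs: C9 (limma, adjusted p = 0.0470), whose signal no array had well above background. That setting called 2.7% of the 37 complement genes higher, beside 7.55% of all genes. There the median of all 37 was -0.017. Under the other alternatives that kept all samples the median was lowest with median centring (-0.14, with 22 of 31 genes lower), and leaving out 1 sample at a time gave -0.12 to -0.012. Fitting every probe on its own gave 0 calls in 37 probes and a median of -0.10. Over all genes, 15 were called in limma, against 512 with normexp, 13 with quantile normalization, 36 with median centring, 3514 with no filter, 127 with a filter on all 8 arrays, 6 with the mean of probes, 13 with the deposited table, 417 with a variance trend and 1 to 19 with 1 sample left out. The replicate block raised that count to 44 and called 0 complement genes (at an unadjusted p under 0.05, 6 lower and 4 higher, or 19.4% and 12.9%, beside 14.6% and 10.5% of all genes). Same-numbered deviations correlated at 0.13, 0.47, 0.01 and -0.29, so replicate numbers did not pair the samples throughout. The 0.47, for the replicates numbered 2, was the highest of any knockout sample with any wild-type sample. Same-numbered samples shared a slide column, and the part of the column in these values was not tested. Of 554 differences of single complement genes under an alternative, 34 changed sign, all for genes with adjusted p above 0.6, and the cause was not tested. Median centring gave C1s -0.054, C4b -0.018, C3 -0.011 and Cfb -0.014. C3 was -0.00076 with quantile normalization, -0.0035 with the mean of probes and -0.011 with the deposited table. Cfi was 0.067 with normexp, and Ggps1 0.0049 with the mean of probes. Without both samples numbered 2, C1s was -0.025, Fcna 0.24 and Cfb -0.021. Leaving out 1 sample at a time gave C1ra -0.019 to 0.18, C1s -0.094 to 0.070, C2 -0.26 to 0.027, C4b -0.11 to 0.15, Fcna -0.63 to 0.60, C3 -0.018 to 0.095, Cfb -0.041 to 0.14, C6 -0.080 to 0.054, Cd46 -0.052 to 0.25, Cfi -0.29 to 0.23 and Clu -0.28 to 0.045. Signal near background limits Fcna, Masp2, Cfi and Cd46, which were dropped by the filter on all 8 arrays.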
